A study of Mus musculus with 6 samples.

Results

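The metabolic nuclear receptors described here are 9 genes chosen by symbol, namely Ppara, Rxra, Nr1h4, Nr0b2, Nr1h3, Esrra, Thrb, Nr3c1 and Rora. These receptors and the gene lists used below were chosen with earlier results of these data known, so their counts are descriptions. All 9 were found among the 32061 genes of the count table, and all 9 had enough counts to be tested. Polyadenylated RNA had been sequenced from hepatocytes freed from mouse liver by collagenase perfusion and cleaned on a density gradient. The 3 senescent samples came from mice with the AhCre transgene and floxed Mdm2 on both chromosomes (AhCre+Mdm2fl/fl), and the 3 healthy samples from AhCre- mice, for which the sources used here give no Mdm2 genotype. Animals of both groups were 10 to 12 weeks old and had received β-naphthoflavone in corn oil by intraperitoneal injection at 20 mg/kg for 48 h. This compound activates the aryl hydrocarbon receptor, which in turn drives the Cre recombinase from the AhCre promoter, and Cre removes part of Mdm2, whose protein restrains p53. Carriage of Cre and loss of Mdm2 cannot be told apart in this design, and the labels do not state that every sample is a different animal, so the p-values measure only the spread between these samples.

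Nuclear receptors are transcription factors that small fat-soluble molecules switch on or off, and the liver uses them to read its supply of fat, sterol, bile acid and hormone. Some bind DNA as a heterodimer with a retinoid X receptor, of which Rxra encodes the main liver form: PPAR-alpha (Ppara) senses fatty acids, FXR (Nr1h4) bile acids, LXR-alpha (Nr1h3) oxysterols and TR-beta (Thrb) thyroid hormone. SHP (Nr0b2) has no DNA-binding domain and represses other receptors, the glucocorticoid receptor (Nr3c1) pairs with itself, and ERR-alpha (Esrra) and ROR-alpha (Rora) bind single extended sites and act on mitochondrial and clock genes.

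Libraries held 29992707 to 32210591 counts in senescent and 28799392 to 33267299 in healthy samples. Values below are CPM, a gene's count relative to its library's total after TMM scaling, which corrects for differences in RNA composition. Log2 fold changes were taken as senescent minus healthy. Mdm2 read 463 to 501 CPM in senescent and 19.0 to 22.7 CPM in healthy libraries, but it is a p53 target and the deleted part is not given, so this does not check the deletion. Cdkn1a, the p53 target that encodes p21, averaged 717 ± 60.0 CPM in senescent and 35.6 ± 17.0 CPM in healthy cells (edgeR adjusted p = 4.4e-05). Among the healthy libraries, replicate 1 stood apart by raw counts: their chi-square over its degrees of freedom was 99.8 and 133 against the other healthy libraries. The remaining pairs within a group had 49.5 to 56.5. By log2 CPM it did not stand apart alone: on the second principal component (9.5% of variance) healthy replicates 1, 2 and 3 lay at 32.2, 2.79 and -34.3. The clock-driven receptor gene Nr1d1 (REV-ERB-alpha), whose RNA swings with time of day, had 2.29 CPM in healthy replicate 1 and 61.8 and 70.8 CPM in healthy replicates 2 and 3. Effects of healthy replicate 1, and of other libraries, are therefore given beside the receptors.

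In senescent hepatocytes 2 of the 9 receptors rose, Esrra 2.95-fold and Nr3c1 1.41-fold, and 2 fell, Nr0b2 to 0.623 and Thrb to 0.657 of the healthy level. Ppara, Rxra, Nr1h4, Nr1h3 and Rora did not pass edgeR's quasi-likelihood test at an adjusted p under 0.05. In such bulk samples fewer cells of a type and less RNA per cell cannot be told apart. The called share, 4 of 9, lies near that of all genes: 41.1% of the 12949 tested genes were called, 20.4% higher and 20.7% lower. The same 4 receptors had groups that did not overlap, which 54.0% of tested genes had too. The median log2 fold change of the 9 was -0.10, against 0.01 over all tested genes. Medians and calls rest on scaling: with total library size the median of all genes moved to 0.33 and that of the 9 receptors to 0.20. With it edgeR called 4 receptors higher and 0 lower (4 and 2 at an unadjusted p under 0.05). Of all genes, 37.5% and 9.92% were called in those directions. Nr0b2 (log2 fold change -0.37) and Thrb (-0.30) stayed below 0 under that scaling but were no longer called.

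**Figure D1:**
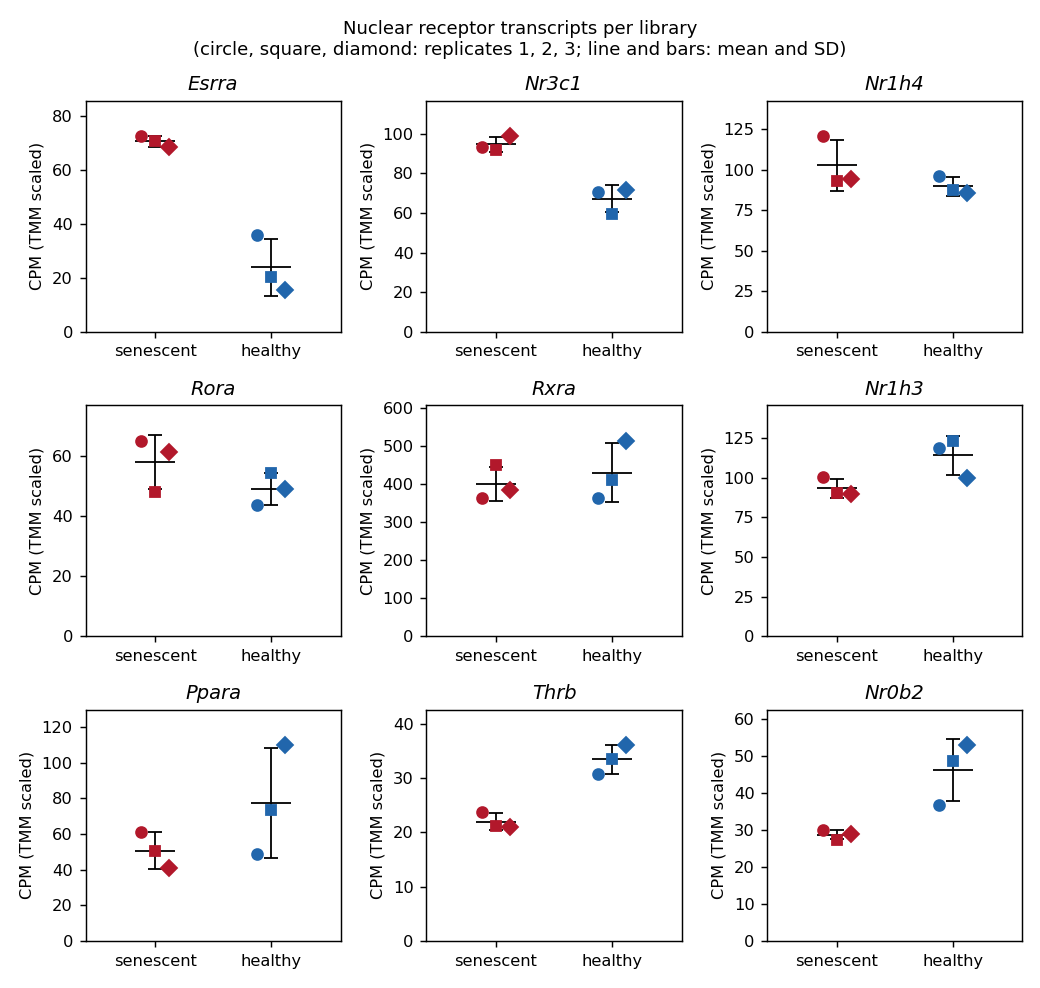
CPM (TMM scaled, linear axis from 0) of the 9 receptor genes in each library, senescent in red on the left and healthy in blue on the right, with replicates 1, 2 and 3 as circle, square and diamond, and mean and SD in black (n = 3 per group). Esrra at 68.3 to 72.5 CPM in senescent against 15.5 to 35.7 CPM in healthy libraries lay apart, whereas Ppara at 40.8 to 61.2 CPM in senescent overlapped its 48.6 to 110.0 CPM in healthy libraries.

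The promoters of 3 called receptors are shown because their genes moved in different directions: Esrra rose, and Nr0b2 and Thrb fell. RefSeq windows on GRCm38.p6, from 250 bases before to 50 after the start, were taken for 8 of the 9 receptors, 11 windows in all. No window was taken for Nr3c1, so its promoter was not examined. Each window shown is printed 5′ to 3′ on the gene's strand, with capitals marking 4 motifs found on either strand. These were AGGTCA (the hexamer read by most nuclear receptors), TCAAGG (the first bases of the longer site read by monomeric receptors such as LRH-1 and the ERRs), GGGCGG (the GC box) and TATAAA (the TATA box).
Esrra, chr19:6921759-6922058, minus strand: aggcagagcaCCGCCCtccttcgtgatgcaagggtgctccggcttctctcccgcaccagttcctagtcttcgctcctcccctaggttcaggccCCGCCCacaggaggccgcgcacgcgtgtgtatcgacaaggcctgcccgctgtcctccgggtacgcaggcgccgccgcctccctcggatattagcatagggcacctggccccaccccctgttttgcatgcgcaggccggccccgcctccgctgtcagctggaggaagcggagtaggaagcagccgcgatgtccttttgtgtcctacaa
Nr0b2, chr4:133553126-133553425, plus strand: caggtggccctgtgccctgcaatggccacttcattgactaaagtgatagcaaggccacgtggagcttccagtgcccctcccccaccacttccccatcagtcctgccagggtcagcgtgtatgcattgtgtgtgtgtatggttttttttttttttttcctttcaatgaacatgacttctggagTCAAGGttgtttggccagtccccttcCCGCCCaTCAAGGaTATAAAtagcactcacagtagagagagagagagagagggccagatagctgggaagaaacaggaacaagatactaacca
Thrb, chr14:17660710-17661009, plus strand, the more upstream of its 2 windows: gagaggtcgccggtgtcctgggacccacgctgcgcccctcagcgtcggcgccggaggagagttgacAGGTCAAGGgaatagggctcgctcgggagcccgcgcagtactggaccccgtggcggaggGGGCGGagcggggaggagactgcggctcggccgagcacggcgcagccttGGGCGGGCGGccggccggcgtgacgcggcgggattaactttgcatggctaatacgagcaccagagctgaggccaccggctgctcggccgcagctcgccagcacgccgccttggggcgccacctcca

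The Nr0b2 window holds TCAAGG at 68 and at 35 bases before the start, with a GC box on the reverse strand at 42 and a TATA box at 28 bases before it. In the Thrb window AGGTCA at 184 and TCAAGG at 181 bases before the start share 3 bases, and 3 GC boxes lie closer to the start, of which the pair at 76 and 72 overlap. The Esrra window has 2 GC boxes on the reverse strand, at 240 and 157 bases before the start, and no match to the other motifs. Among all 32851 RefSeq windows, 16.3% hold AGGTCA, 14.4% TCAAGG, 35.7% the GC box and 13.6% the TATA box. Of the 11 receptor windows, 3 hold AGGTCA, 2 TCAAGG, 5 the GC box and 2 the TATA box. A match describes letters only.

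Levels of different genes can be compared only per length, as CPM per kb of exon. On that scale Rxra was the most abundant of the 9, at 73.3 in senescent and 78.7 CPM per kb in healthy cells, above 95.8% and 94.9% of tested genes. In senescent cells it was followed by Nr1h4 (44.6), Nr1h3 (37.1) and Nr0b2 (25.4), with no overlap between neighbours. Esrra came next at 16.1, ahead of Ppara (13.2) and Nr3c1 (12.3), whose neighbouring ranges overlapped, and then Rora (4.45) and Thrb (2.96), whose ranges did not. In healthy cells Nr1h3 (45.3), Nr0b2 (40.7) and Nr1h4 (39.0) came next with neighbouring ranges that overlapped, then Ppara (20.2), Nr3c1 (8.75), Esrra (5.44), Thrb (4.51) and Rora (3.76), the last 4 again overlapping from neighbour to neighbour. Esrra was thus at place 5 of 9 in senescent and place 7 in healthy cells.

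Rxra (ENSMUSG00000015846; GRCm38 chromosome 2, 27676440 to 27762957), the shared partner, measured 365, 451 and 386 CPM across senescent replicates 1 to 3, against 364, 411 and 515 CPM across healthy replicates 1 to 3. The senescent values all lay within the healthy range. Its log2 fold change was -0.10 ± 0.16 (SE; 95% interval -0.48 to 0.27; edgeR adjusted p = 0.64), with a sign that turned to 0.20 with total library size and 0.04 without healthy replicate 3. The 2 lesser partner genes were called lower. Rxrb averaged 25.9 ± 1.08 CPM in senescent and 34.3 ± 4.21 CPM in healthy cells (edgeR adjusted p = 0.027), a call lost with total library size (0.57), in all 3 fits that dropped a senescent library (0.063 to 0.13) and on dropping healthy replicate 1 (0.057) or 2 (0.088). Rxrg averaged 1.51 ± 0.768 CPM in senescent and 6.24 ± 3.22 CPM in healthy cells (log2 fold change -2.05 ± 0.45, edgeR adjusted p = 0.0082).

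Ppara (ENSMUSG00000022383; chromosome 15, 85734983 to 85802819), the fasting and fat oxidation receptor, measured 61.2, 50.3 and 40.8 CPM across senescent replicates 1 to 3, against 48.6, 73.4 and 110.0 CPM across healthy replicates 1 to 3. Healthy replicate 1 lay inside the senescent range, and the healthy coefficient of variation was 40.0%, against a median of 12.3% over tested genes of at least 10 CPM. This gave a log2 fold change of -0.61 ± 0.28 (95% interval -1.24 to 0.03; edgeR adjusted p = 0.11). Without healthy replicate 1 it passed, at -0.86 (edgeR adjusted p = 0.019), and without healthy replicate 3 it was -0.27. Ppard, the broadly expressed form, had 54.9, 52.0 and 63.9 CPM in senescent libraries, against 45.9, 13.7 and 14.0 CPM in healthy ones. It did not pass (log2 fold change 1.21 ± 0.43, edgeR adjusted p = 0.052), but did without healthy replicate 1 (2.03, adjusted p = 6e-05), with limma-voom (adjusted p = 0.021), with total library size (0.019) and with no filter (0.025). Pparg, the adipocyte form, fell to 4.88 ± 0.728 CPM in senescent cells, against 9.73 ± 1.66 CPM in healthy cells (edgeR adjusted p = 0.0034).

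Genes known as PPAR-alpha targets were mostly lower. Of 32 tested, 25 fell, 1 rose and 6 did not pass, with a median log2 fold change of -0.95. Mlycd, for malonyl-CoA decarboxylase, averaged 38.2 ± 3.48 CPM in senescent and 97.9 ± 3.98 CPM in healthy cells (edgeR adjusted p = 6.1e-05), and Acsl1, which activates long-chain fatty acids, 284 ± 35.9 and 853 ± 87.9 CPM (0.00012). The member that rose was Aldh3a2, a fatty aldehyde dehydrogenase gene, with 417 ± 61.2 CPM in senescent and 275 ± 37.9 CPM in healthy cells (edgeR adjusted p = 0.018). That call was lost on dropping senescent replicate 1 or 3 (0.057 each) or healthy replicate 2 (0.059). With total library size 20 fell and 1 rose. Among all tested genes, to compare with this and the later lists, 20.4% were called higher and 20.7% lower. With total library size these shares were 37.5% and 9.92%, and without senescent replicate 3, 25.4% were called in either direction. Of 10 general hepatocyte markers, described below, 7 fell and 0 rose with TMM, with a median log2 fold change of -0.86.

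Nr1h4 (ENSMUSG00000047638; chromosome 10, 89454234 to 89533585), the bile acid receptor, measured 121, 93.0 and 94.4 CPM across senescent replicates 1 to 3, against 96.2, 87.6 and 85.5 CPM across healthy replicates 1 to 3. Senescent replicate 1 was the highest, and the groups overlapped. The log2 fold change of 0.19 ± 0.13 did not pass (95% interval -0.11 to 0.50; edgeR adjusted p = 0.27), but with total library size it was 0.51 and passed (adjusted p = 0.017).

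Nr0b2 (ENSMUSG00000037583; chromosome 4, 133553376 to 133556536), itself a target of FXR and of LRH-1, measured 29.9, 27.3 and 28.98 CPM across senescent replicates 1 to 3, against 36.8, 48.7 and 52.9 CPM across healthy replicates 1 to 3. Every senescent library lay below every healthy one. Its log2 fold change was -0.68 ± 0.15 (95% interval -1.02 to -0.35; edgeR adjusted p = 0.0071). It passed with each library left out in turn (adjusted p 0.0012 to 0.045), but not with total library size (-0.37, adjusted p = 0.079). Nr5a2, which encodes LRH-1, also fell, to 49.0 ± 3.96 CPM in senescent cells, against 67.6 ± 11.3 CPM in healthy cells (edgeR adjusted p = 0.031). That call was lost with total library size (0.41), in all 3 fits that dropped a senescent library (0.051 to 0.15) and on dropping healthy replicate 2 (0.098).

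Genes that FXR is known to induce moved both ways: of 13 tested, 3 (Abcb4, Pltp and Sdc1) rose and 4 fell, with a median log2 fold change of -0.18. With total library size the median was 0.14, against 0.33 over all tested genes. Abcb4, the phospholipid carrier of bile, averaged 703 ± 58.1 CPM in senescent and 256 ± 30.3 CPM in healthy cells (edgeR adjusted p = 0.00015). Pltp, a phospholipid transfer protein gene that LXR also induces, averaged 166 ± 39.1 CPM in senescent and 70.5 ± 15.3 CPM in healthy cells (0.0026). Slc27a5, for bile acid activation, had 480.4 ± 36.9 and 1441 ± 41.7 CPM in senescent and healthy cells (6.1e-05), and Fgfr4, the receptor through which the gut signals bile acid supply, 18.9 ± 2.13 and 55.9 ± 5.58 CPM (6.4e-05). Of 5 genes known to be repressed through FXR and SHP, 4 fell and 0 rose in edgeR, with a median of -1.21 (0 higher as well at an unadjusted p under 0.05 and by DESeq2 or limma-voom; 3 fell with total library size). Slc10a1, the bile acid uptake carrier, averaged 211 ± 40.4 CPM in senescent and 611 ± 47.4 CPM in healthy cells (edgeR adjusted p = 0.00027), and Cyp27a1, of the alternative synthesis route, 261 ± 11.3 and 603 ± 89.8 CPM (0.0004). Cyp7a1, the rate-limiting gene of bile acid synthesis and the member that did not pass, had 24.8, 44.4 and 26.9 CPM in senescent libraries, against 154, 15.5 and 23.3 CPM in healthy ones, so its healthy mean rests on replicate 1.

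Nr1h3 (ENSMUSG00000002108; chromosome 2, 91184061 to 91202834), the oxysterol receptor, measured 100.3, 90.4 and 89.6 CPM across senescent replicates 1 to 3, against 119, 123 and 99.9 CPM across healthy replicates 1 to 3. Only senescent replicate 1 and healthy replicate 3 overlapped. The log2 fold change of -0.29 ± 0.12 did not pass (95% interval -0.56 to -0.01; edgeR adjusted p = 0.088), except without healthy replicate 3 (-0.38, adjusted p = 0.029), and was 0.02 with total library size. Its broadly expressed paralog Nr1h2 averaged 36.1 ± 1.83 CPM in senescent and 41.9 ± 2.60 CPM in healthy cells (edgeR adjusted p = 0.14). Among 16 LXR target genes, 2 rose and 7 fell (median -0.21), whereas with total library size 6 rose and 3 fell (median 0.09). With that scaling 37.5% of all tested genes were called higher and 9.92% lower, and their median was 0.33. Dropping senescent replicate 2 left 3 risen and 4 fallen, and dropping senescent replicate 3 left 1 and 4. With the 50 most abundant genes removed, which took 2 members off the list, the median was 0.15. Pltp, described with FXR, and the lipoprotein lipase gene Lpl rose, Lpl to 11.1 ± 5.55 CPM in senescent cells, against 4.36 ± 1.42 CPM in healthy cells (edgeR adjusted p = 0.032). Lpl was not called with limma-voom (0.086), nor on dropping senescent replicate 1 (0.076) or 3 (0.11) or healthy replicate 2 (0.1) or 3 (0.084). Mlxipl, the glucose-sensing factor ChREBP, averaged 233 ± 12.2 CPM in senescent and 349 ± 19.5 CPM in healthy cells (edgeR adjusted p = 0.0049, but 0.092 when scaled to total library size), and the fatty acid synthase gene Fasn 435 ± 153 and 1103 ± 268 CPM (0.0054).

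Thrb (ENSMUSG00000021779; chromosome 14, 17660261 to 18038090), the main thyroid hormone receptor of liver, measured 23.7, 21.2 and 20.9 CPM across senescent replicates 1 to 3, against 30.7, 33.5 and 36.0 CPM across healthy replicates 1 to 3. The groups were apart and each was tight, with coefficients of variation of 7.10% and 7.99%. Its log2 fold change was -0.61 ± 0.11 (95% interval -0.86 to -0.35; edgeR adjusted p = 0.0035). The call held with each library left out (adjusted p 0.0043 to 0.036) but not with total library size (-0.30, adjusted p = 0.072). The other receptor gene of the pair, Thra, averaged 11.8 ± 0.750 CPM in senescent and 11.9 ± 4.02 CPM in healthy cells (log2 fold change -0.02, 95% interval -0.52 to 0.48).

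Of 10 thyroid hormone target genes tested, 4 fell, 1 rose and 5 did not pass, with a median of -0.49 (3 fell and 1 rose with total library size). Thrsp, a lipogenic regulator, averaged 74.9 ± 27.6 CPM in senescent and 462 ± 209 CPM in healthy cells (edgeR adjusted p = 0.00089). Me1, the malic enzyme gene, averaged 177 ± 9.58 CPM in senescent and 336 ± 36.3 CPM in healthy cells (0.00085). Hr, which encodes a corepressor of thyroid hormone receptors, had 19.5, 20.3 and 18.6 CPM in senescent libraries, against 1.25, 0.545 and 0.212 CPM in healthy ones, a log2 fold change of 4.84 ± 0.40 (edgeR adjusted p = 6.1e-05).

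Nr3c1 (ENSMUSG00000024431; chromosome 18, 39410545 to 39519421), the glucocorticoid receptor gene, measured 93.3, 91.7 and 98.8 CPM across senescent replicates 1 to 3, against 70.8, 59.4 and 71.4 CPM across healthy replicates 1 to 3. All senescent libraries were above all healthy ones. Its log2 fold change was 0.49 ± 0.11 (95% interval 0.23 to 0.75; edgeR adjusted p = 0.0098), and it passed with each library left out (0.011 to 0.038) and with total library size (0.80, adjusted p = 0.0012). The related mineralocorticoid receptor gene Nr3c2 averaged 7.96 ± 1.19 CPM in senescent and 7.07 ± 0.874 CPM in healthy cells (edgeR adjusted p = 0.44). Nr3c1 is active in most cell types. In the same libraries the summed CPM of 12 macrophage markers was 369 ± 124 in senescent and 196 ± 87.7 in healthy cells. These macrophage sums overlapped between groups, at 242 to 488 and 98.2 to 267 CPM. The sum of 11 stellate cell markers was 34.5 ± 8.19 in senescent and 14.1 ± 4.14 in healthy cells, and that of 10 endothelial markers 160 ± 21.4 and 138 ± 18.5. The part of such cells in the higher Nr3c1 was not tested.

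Among 19 glucocorticoid target genes, edgeR called 0 higher and 3 lower, as did DESeq2 and limma-voom and an unadjusted p under 0.05. With a replicate block 2 rose and 4 fell. The median of the 19 was -0.01, and 0.07 on dropping senescent replicate 1. With total library size it was 0.29, against 0.33 over all tested genes, and 2 rose and 3 fell. The 3 that fell without the block are also genes of amino acid and glucose output. Sds, serine dehydratase, averaged 47.4 ± 16.5 CPM in senescent and 307 ± 58.2 CPM in healthy cells (edgeR adjusted p = 0.00013). G6pc, for the last step of glucose release, averaged 90.6 ± 26.8 CPM in senescent and 454 ± 44.0 CPM in healthy cells (0.00016), and the third was Tat, tyrosine aminotransferase (544 ± 194 and 1529 ± 354 CPM, 0.0041). Fkbp5 and Tsc22d3, which answer to glucocorticoid in many cell types, had log2 fold changes of -0.49 ± 0.38 and -0.63 ± 0.32 and did not pass (edgeR adjusted p = 0.32 and 0.15). With the replicate block Fkbp5 was called lower (-0.55, edgeR adjusted p = 0.037).

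Esrra (ENSMUSG00000024955; chromosome 19, 6910977 to 6921813), an orphan receptor that drives mitochondrial genes with the coactivators PGC-1, measured 72.5, 70.7 and 68.3 CPM across senescent replicates 1 to 3, against 35.7, 20.4 and 15.5 CPM across healthy replicates 1 to 3. The senescent libraries were nearly level, with a coefficient of variation of 2.94%, while the healthy ones varied by 44.2%, replicate 1 being highest. Its log2 fold change was 1.56 ± 0.27 (95% interval 0.94 to 2.18; edgeR adjusted p = 0.0026). It ranged from 1.33 without healthy replicate 3 to 1.97 without healthy replicate 1, called each time (adjusted p at most 0.015), and was 1.88 with total library size. In the annotation 73 exonic bases of Esrra, 1.66% of its exonic length, overlap Trmt112 on the opposite strand, which averaged 20.8 CPM in senescent and 32.6 CPM in healthy cells. Of its relatives, Esrrg fell to 0.964 ± 0.134 CPM in senescent cells, against 2.55 ± 0.900 CPM in healthy cells (edgeR adjusted p = 0.0091), and Esrrb, below 1 CPM in every library, did not pass (adjusted p = 0.18).

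ERR target genes were lower or not called. Of 12 tested, edgeR called 7 lower and 0 higher, with a median of -0.61 (9 and 0 at an unadjusted p under 0.05; 0 higher also by DESeq2 and limma-voom). Scaled to total library size, 2 fell and 0 rose, with a median of -0.30. Acadm, for medium-chain fatty acid oxidation and also a PPAR-alpha target, averaged 141 ± 3.22 CPM in senescent and 268 ± 47.6 CPM in healthy cells (edgeR adjusted p = 0.0016). Sdha, a subunit of succinate dehydrogenase, averaged 334 ± 19.5 CPM in senescent and 537 ± 24.7 CPM in healthy cells (0.0027).

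Rora (ENSMUSG00000032238; chromosome 9, 68653786 to 69388246), which activates clock genes, measured 65.3, 48.0 and 61.4 CPM across senescent replicates 1 to 3, against 43.7, 54.4 and 49.3 CPM across healthy replicates 1 to 3. Senescent replicate 2 lay within the healthy range. The log2 fold change of 0.24 ± 0.15 did not pass (95% interval -0.09 to 0.58; edgeR adjusted p = 0.21), but with total library size it was 0.56 (adjusted p = 0.021). Other receptor genes whose products share its DNA sites varied widely between libraries. Nr1d2 (REV-ERB-beta) had 26.1, 37.2 and 30.7 CPM in senescent libraries, against 11.1, 48.0 and 46.0 CPM in healthy ones. Nr1d1 had 15.0, 31.8 and 37.6 CPM in senescent libraries, and neither gene passed (edgeR adjusted p = 0.56 for Nr1d1 and 0.79 for Nr1d2). Without healthy replicate 1 both were called lower, with log2 fold changes of -1.24 for Nr1d1 and -0.59 for Nr1d2 (adjusted p = 0.022 each). Healthy replicate 1 was the lowest of all 6 libraries for both REV-ERB genes. Of 12 ROR and REV-ERB targets 2 rose and 3 fell, a called share of 41.7% against 41.1% of all tested genes. Their median of -0.30 was 0.01 with total library size, where that of all tested genes was 0.33. Dropping healthy replicate 1 left 5 fallen, where the added genes were Nr1d1 and Nr1d2 themselves, which this list also holds. Dropping senescent replicate 3 left 1 fallen. Only 1 was called higher on dropping senescent replicate 1 or 3 or healthy replicate 2 or 3. Insig2, an anchor of sterol sensing, averaged 518 ± 62.6 CPM in senescent and 223 ± 29.1 CPM in healthy cells (edgeR adjusted p = 0.00051). Npas2, a clock activator, rose as well (log2 fold change 0.87, edgeR adjusted p = 0.041), but not on dropping senescent replicate 1 or 3 or healthy replicate 2 or 3 (0.095 to 0.12). Besides G6pc, the apolipoprotein gene Apoc3 fell to 1054 ± 119 CPM in senescent cells, against 1712 ± 351 CPM in healthy cells (edgeR adjusted p = 0.016), a call lost with total library size (0.083) and on dropping senescent replicate 1 (0.057) or 3 (0.069).

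**Figure D2:**
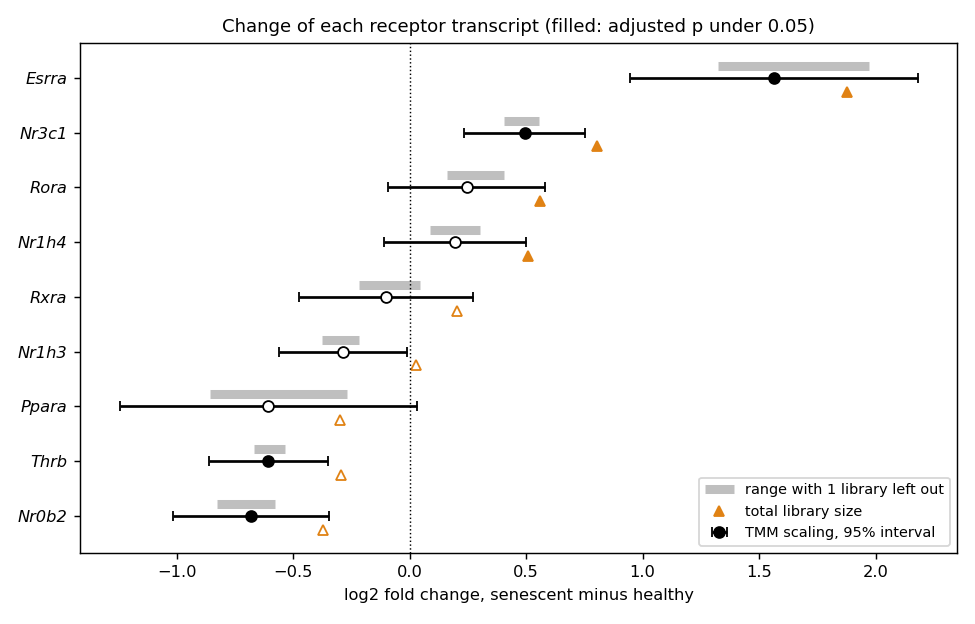
Log2 fold change (senescent minus healthy) of the 9 receptor transcripts with TMM scaling (circles, 95% interval), with total library size (triangles) and the range over the 6 fits that leave out 1 library (grey), filled where the edgeR adjusted p was under 0.05. Esrra and Nr3c1 were called under both scalings, Nr0b2 and Thrb with TMM only, Nr1h4 and Rora with total library size only, and Rxra and Nr1h3 changed sign between the scalings without being called under either.

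Coregulators, the proteins that carry a receptor's signal to chromatin, were mostly not called. Of 18 tested, 1 rose, 3 fell and 14 did not pass, with a median of -0.02. The called share was 22.2%, against 41.1% of all tested genes. The PGC-1 genes fell: Ppargc1b averaged 0.544 ± 0.115 CPM in senescent and 2.71 ± 0.626 CPM in healthy cells (edgeR adjusted p = 0.0007). Ppargc1a averaged 3.32 ± 2.41 CPM in senescent and 11.1 ± 2.12 CPM in healthy cells (0.013; 0.056 without senescent replicate 3). With total library size 6 coregulators rose and 2 fell, where 37.5% of all tested genes were called higher. On dropping healthy replicate 3, 4 coregulators rose and 2 fell (median 0.06), and on dropping senescent replicate 3 only 1 fell.

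Genes that supply or carry the receptors' ligands, or chaperone the receptors, were lower or not called. Of 17 tested, edgeR called 10 lower and 0 higher, with a median of -0.54 (11 and 0 at an unadjusted p under 0.05; 0 higher also by DESeq2 and limma-voom). Scaled to total library size, 6 fell and 1 rose, and without senescent replicate 3 also 6 fell. The members with the smallest p handle glucocorticoid. Serpina6, which encodes the plasma carrier of corticosteroids, averaged 64.8 ± 4.83 CPM in senescent and 395 ± 57.4 CPM in healthy cells (edgeR adjusted p = 7.6e-06). Hsd11b1, whose enzyme regenerates active glucocorticoid inside the cell, averaged 239 ± 20.8 CPM in senescent and 595 ± 21.1 CPM in healthy cells (0.00012).

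**Figure D3:**
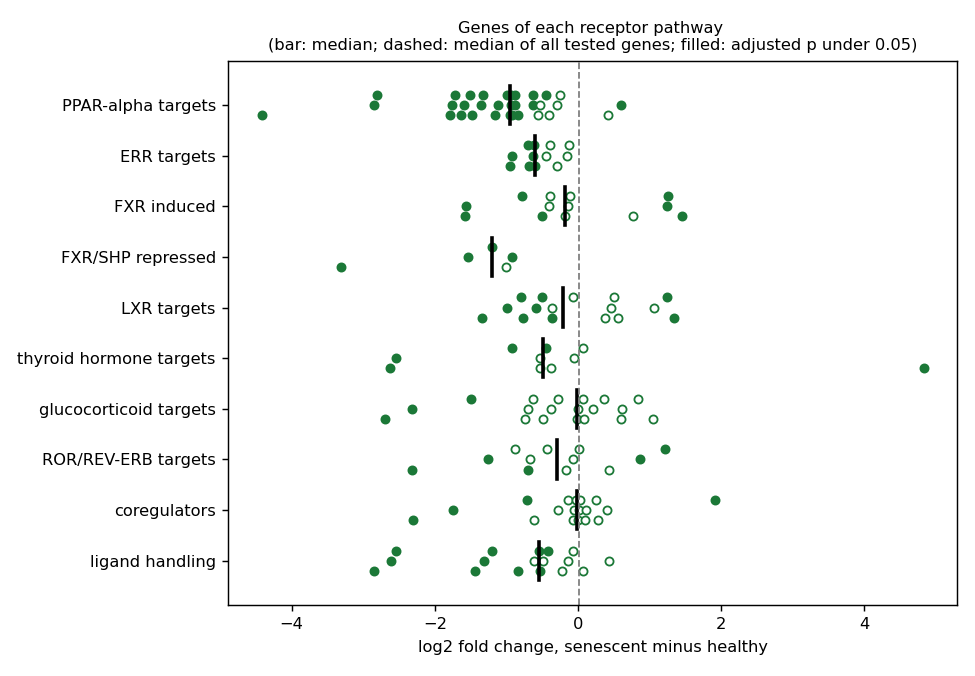
Log2 fold change (senescent minus healthy, TMM scaling) of every tested gene in 10 lists of receptor targets, coregulators and ligand handling genes, with a bar at each list's median, a dashed line at the median of all tested genes (0.01), and filled points where the edgeR adjusted p was under 0.05. PPAR-alpha targets centre on -0.95 and FXR/SHP-repressed genes on -1.21, while glucocorticoid targets and coregulators centre on -0.01 and -0.02. Scaling to total library size put the medians of the FXR-induced, LXR, glucocorticoid, ROR/REV-ERB and coregulator lists above 0. Each of these stayed below the median of all tested genes under that scaling, 0.33.

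The superfamily has 49 genes in mouse by the list used, and 28 of the 40 outside the 9 had enough counts to test. Of these 28, 3 rose and 8 fell, a called share of 39.3% (41.1% of all tested genes), with a median of -0.38. Dropping replicate 2 or 3 of either group left 1 risen, Rarg, and dropping senescent replicate 2 left 5 fallen. Rarg, a retinoic acid receptor gene, had 13.3, 15.2 and 14.9 CPM in senescent libraries, against 1.79, 2.84 and 1.84 CPM in healthy ones (log2 fold change 2.75 ± 0.20, edgeR adjusted p = 3e-05). Nr1i3, which encodes the xenobiotic receptor CAR, had 69.0, 67.5 and 48.6 CPM in senescent libraries, against 226, 169 and 235 CPM in healthy ones (-1.77 ± 0.18, edgeR adjusted p = 0.0002). Nr4a1 averaged 8.55 ± 0.948 CPM in senescent and 6.29 ± 0.634 CPM in healthy cells (edgeR adjusted p = 0.047). It was called in none of DESeq2, limma-voom, the unfiltered fit and 5 of the 6 fits that left out a library (adjusted p 0.05 to 0.12). The member of the list with the highest CPM, Hnf4a, averaged 805 ± 107 CPM in senescent and 795 ± 169 CPM in healthy cells (log2 fold change 0.02, 95% interval -0.41 to 0.44). Nr0b1, close to SHP in structure, had 0 counts in every library, and Nr1h5, a relative of FXR, was too low to test.

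**Figure D4:**
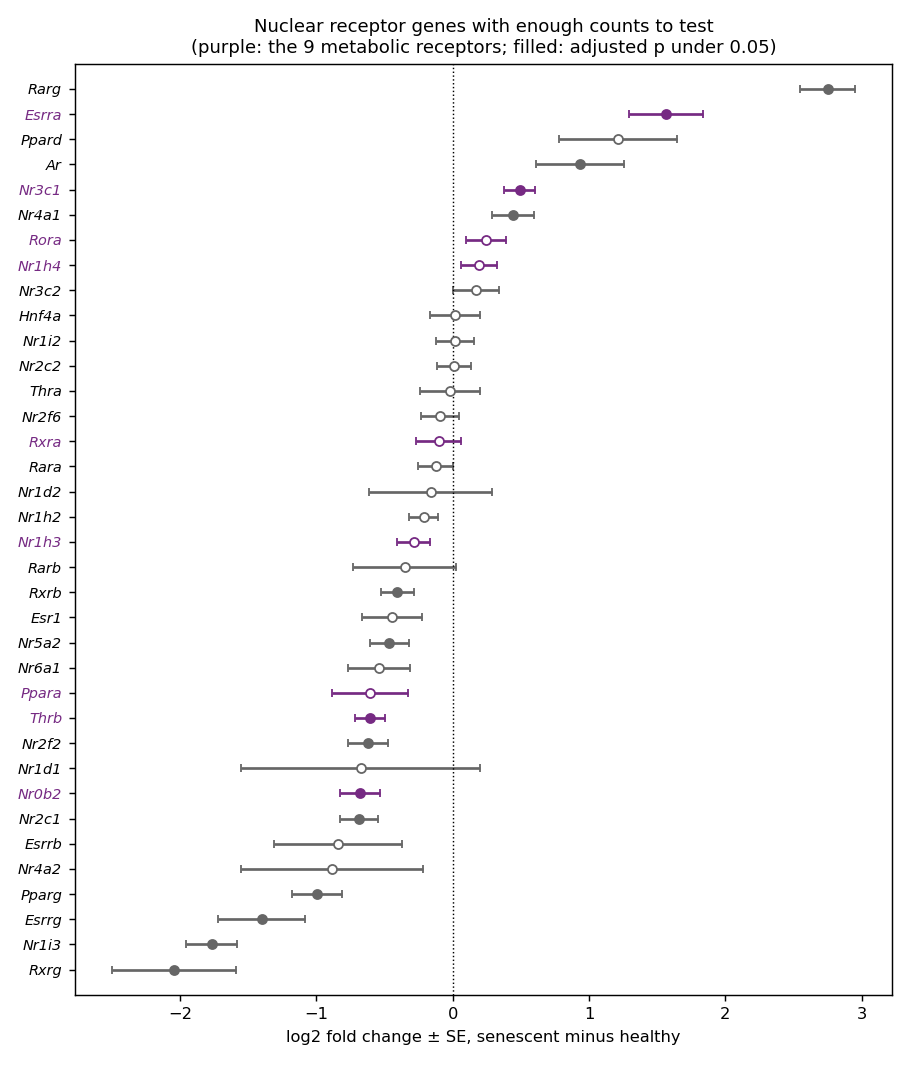
Log2 fold change ± SE (senescent minus healthy, TMM scaling) of 36 of the 37 nuclear receptor genes with enough counts to test, ordered by change from top to bottom, the 9 metabolic receptors in purple, and filled points where the edgeR adjusted p was under 0.05. Rarg (2.75) and Esrra (1.56) stand at the top and Nr1i3 (-1.77) and Rxrg (-2.05) at the bottom, and the 8 metabolic receptors other than Esrra lie between -0.68 and 0.49.

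For each receptor the genes with the most similar profile were sought among 7255 genes of at least 10 CPM, by Pearson correlation of log2 CPM over the 6 libraries. These libraries form 2 groups, so a likeness can reflect the group difference alone, and it is given as a description. Esrra was closest to Sdc1, a syndecan gene (r = 0.997), and Hemk1 (0.996). In both genes, as in Esrra, healthy replicate 1 was the highest healthy library, with 554 CPM of Sdc1 against 312 and 261 CPM in healthy replicates 2 and 3. Nr3c1 was closest to Robo1, a guidance receptor gene (0.996), and the proteasome activator gene Psme4 (0.996). Nr0b2 was closest to Bcas3 (0.999) and Nxt2 (0.997), and Thrb to the semaphorin receptor gene Nrp2 (0.999) and Abca8a (0.998). Ppara was closest to Bcl3 (0.992), which is also in the thyroid target list, and Psmd2 (0.979), and Rxra to the autophagy genes Nbr1 and Becn1 (0.989 each). Nr1h3 went with Pfkl and Tbc1d17 (0.995 each), Rora with Kifc3 (0.994) and Slbp (0.985), and Nr1h4 with Ubxn8 (0.962) and Ezh1 (0.957).

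Markers of hepatocytes and of other cell types were read in the same libraries, against the 20.4% of all tested genes called higher and 20.7% called lower. Hepatocyte markers were present at high level, with a summed 86190 to 100500 CPM in senescent and 148700 to 165400 CPM in healthy libraries, and edgeR called 7 of 10 lower and 0 higher (the same at an unadjusted p under 0.05, by DESeq2 and by limma-voom), or 4 lower without senescent replicate 3. Of 12 macrophage markers 2 (16.7%) rose by edgeR, 6 by DESeq2, 4 by limma-voom and 10 with total library size, with sums of 242 to 488 CPM in senescent and 98.2 to 267 CPM in healthy libraries. Without senescent replicate 3 edgeR called 0 of them (2 at an unadjusted p under 0.05), against 6 without senescent replicate 2 and 5 without healthy replicate 2. Of 10 tested stellate markers 6 rose, with sums of 28.1 to 43.7 CPM in senescent and 11.7 to 18.9 CPM in healthy libraries, but only 2 without senescent replicate 3 and 3 without healthy replicate 1 or 3. Without senescent replicate 3 the called share of all tested genes was itself 25.4%, against 41.1% with every library. Of 10 endothelial markers 2 (20.0%) were called higher (137 to 178 and 119 to 156 CPM), and 1 on dropping replicate 1 or 3 of either group. Of 4 tested cholangiocyte markers 2 rose (11.4 to 16.3 and 4.70 to 8.05 CPM). Without healthy replicate 2, 4 of 5 tested rose, and without senescent replicate 1, 2 rose and 1 fell. The lymphocyte sum was 4.17 to 8.28 and 1.56 to 4.41 CPM with its single tested member not called by edgeR (called by DESeq2 and limma-voom). No marker was at 0 in all libraries, but the myofibroblast marker Acta2 was at 0 in every healthy library and at most 0.056 CPM in senescent ones. The part of these cells in the receptor changes was not tested.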

How the data were processed

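The members and gene lists were chosen with earlier results of these data known. The authors deposited 1 table of raw read counts per gene. The submitters' processing notes name build GRCm38, STAR 2.7.1a and featureCounts among the tools, besides cutadapt 1.16, MultiQC 1.3, FastQC and DESeq2 1.34.0. Neither annotation release nor strand setting is given in the sources used here, which leaves reads of overlapping genes uncertain. A sample's exact code heads 5 of the 6 columns. The other column was assigned to healthy replicate 2, since the label's code is a single letter off. Symbols were matched for 31976 IDs (99.73%). Coordinates and exonic lengths come from GENCODE M21 on GRCm38.

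Counts were tested with edgeR 4.0.16 (R 4.3.3), using TMM scaling and glmQLFTest with no covariate. Genes were kept by filterByExpr, whose minimum count was 10 and minimum total 15. Two-sided p-values were adjusted over the 12949 genes kept (Benjamini-Hochberg) and called below 0.05. Standard errors are the log2 fold change over the square root of F. An exact permutation test of 3 against 3 cannot reach 0.05 and was not used. Alternatives were DESeq2 1.42.0, limma-voom (limma 3.58.1), other scalings and filters, a threshold of 0.01, a replicate block and leaving out each library. No pair of libraries looked like 1 library deposited a second time. The tests recovered known changes in simulated counts, where few genes changed, equally in both directions and with no difference in RNA composition. The simulation therefore cannot show how the calls depend on scaling in these data. Named genes were those of the 9 receptors, fixed relatives, and from each list the 2 risen and 2 fallen members with the smallest p, and Mdm2, besides the 2 genes closest to each receptor in profile. Other genes (Hnf4a, Nr5a2, Cyp7a1, Tat, Fkbp5, Tsc22d3 and Acta2) were chosen after their values were seen. Single-gene values of a relative and of a list member that the rule also names are not reported here.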

Additional observations from a re-analysis of the deposited data

How the results depend on the processing

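Esrra and Nr3c1 were called higher under every alternative run. Nr0b2 and Thrb were called lower under every one except total library size. That scaling called 4861 genes higher and 1285 lower, against 2644 and 2680 with TMM, so that 79.1% of calls were higher against 49.7%. With it 4 of the 9 receptors were higher and 0 lower (2 and 2 with TMM), 4 of the other tested nuclear receptors were lower (8 with TMM), and of 142 pathway genes 21 were higher and 42 lower (9 and 64 with TMM). At an adjusted p under 0.01, 1570 genes were higher and 1498 lower, and among the other nuclear receptors 1 was higher and 5 lower (3 and 8 at 0.05). With 1 library left out, 1836 to 2691 genes were higher and 1489 to 2789 lower, the fewest in both directions without senescent replicate 3. In these fits 1 to 3 other nuclear receptors were higher and 5 to 9 lower: dropping replicate 2 or 3 of either group left 1 higher, and dropping senescent replicate 2 left 5 lower. Where a value moved, the cause was not tested. No pairing by replicate number was seen throughout: deviations from the group means of same-numbered libraries correlated at 0.228, -0.174 and -0.043. Senescent and healthy replicate 1 correlated best with each other, but not every library correlated best with its own number. With 3 libraries per group these values cannot exclude a pairing. With the replicate block 2576 genes were higher and 2625 lower, and the calls of the 9 receptors did not change. With it Ppard was called higher (adjusted p = 0.02), Nr4a1 was not called (0.063), Fkbp5 was called lower (0.037), and 2 glucocorticoid targets rose and 4 fell (0 and 3 without the block).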
